A study of Mus musculus with 18 samples.

Results

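Complement gene expression was followed in Tcf21-lineage cardiac fibroblasts across the regenerative and non-regenerative windows of the neonatal mouse heart. The 9 genes were C1ra, C1s1, Serping1, C4b, C3, Cfb, Cfd, C7 and C3ar1. They were chosen by name, with the C1q chains left out, and all 9 were found among the 55453 gene symbols of the deposited counts. Of these, 16170 symbols had enough counts to test, and 8 of the 9 complement genes were among them. Cfd had counts in a single library and did not pass the filter on low counts.

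Every pup carried Tcf21-MerCreMer and Rosa-mTmG on C57BL/6J and received tamoxifen at P1, so that all groups share the Cre line, the reporter and the drug. Tamoxifen-activated Cre under Tcf21 switches the reporter from tdTomato to GFP, and GFP+ cells of the ventricles' apical portion were sorted. A cell that did not express Tcf21 when tamoxifen acted is not labelled, and a labelled cell keeps GFP whatever it becomes. There were 3 libraries in each of 6 groups, namely P2 baseline and P10 baseline from un-manipulated pups, the P2 sham +3 days group and the P2 resected +3 days group collected at P5, and the P10 sham +3 days group and the P10 resected +3 days group collected at P13. Each library held between 10462737 and 22980554 counted reads. The sources used here do not say how many pups went into a library, so the tests measure the spread between libraries.

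Complement is a cascade of plasma and tissue proteins that tags surfaces and damaged cells. In the classical pathway, C1q bound to a target activates the proteases C1r and C1s, which cleave C4 and C2 to build an enzyme that cleaves C3. Factor B and factor D amplify C3 cleavage in the alternative pathway, C7 takes part in the terminal membrane attack complex, and the fragment C3a signals through its receptor C3ar1. The liver makes most plasma complement, but fibroblasts of many tissues are known to make C1r, C1s, C1 inhibitor, C3 and C4.

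Several of these genes have near copies in the mouse genome, which bears on how their reads are counted. C4b lies on chromosome 17 (chr17:34728380-34743882, minus strand, GRCm38) and is 96.1% identical to its neighbour C4a over the aligned transcripts. A stretch of 60 coding bases of C4b (chr17:34735430-34735489, minus strand) is shown with its C4a counterpart because its 13 differing bases, in capitals, let a read be placed on one copy.
C4b: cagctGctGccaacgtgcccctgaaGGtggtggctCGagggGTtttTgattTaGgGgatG
C4a: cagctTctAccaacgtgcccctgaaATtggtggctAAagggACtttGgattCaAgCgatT
Of all 75-base windows of the C4b transcript, 23.5% also occur in C4a, so reads from them map to both copies and were left out of the counts. The same held for 42.4% of the windows of C1ra, 40.1% of them shared with C1rb, and for 28% of those of C1s1, shared with C1s2 and with an overlapping antisense gene. The copies themselves were almost without counts, with 22 reads for C4a, 2 for C1rb and 45 for C1s2 over all 18 libraries. For Cfb (chr17:34856374-34862518, minus strand), 79.5% of the exon bases also belong to the annotated gene Gm20547. Reads there overlap both genes and were not counted, which leaves 20.5% of Cfb to count on. None of the 75-base windows of C3, C7, Serping1, Cfd or C3ar1 occurred in another gene.

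C1ra (chr6:124512405-124523443, plus strand) and C1s1 (chr6:124530345-124542359, minus strand) are neighbours on chromosome 6 that face each other tail to tail. C3 (chr17:57203970-57228136, minus strand) shares chromosome 17 with C4b and Cfb. The 150 bases before the RefSeq start of C1ra (chr6:124512471-124512620), C1s1 (chr6:124542360-124542509) and C3 (chr17:57228137-57228286) are shown because the first pair of genes was called between the windows and C3 was not (GRCm38.p6, each on its gene's strand). The C1ra stretch lies inside the GENCODE span of the gene given above, since its RefSeq start is downstream of the GENCODE start.
C1ra: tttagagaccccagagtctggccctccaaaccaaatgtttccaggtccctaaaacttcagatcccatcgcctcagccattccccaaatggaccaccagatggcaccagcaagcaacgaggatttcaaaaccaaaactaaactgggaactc
C1s1: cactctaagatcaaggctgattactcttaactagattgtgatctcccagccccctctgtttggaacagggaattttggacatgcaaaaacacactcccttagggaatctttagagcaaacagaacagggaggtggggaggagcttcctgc
C3: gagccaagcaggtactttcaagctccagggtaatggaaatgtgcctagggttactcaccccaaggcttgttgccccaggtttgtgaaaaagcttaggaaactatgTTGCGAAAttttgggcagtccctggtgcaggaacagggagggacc
The capitals in C3 mark letters of the C/EBP pattern TTGCNNAA, beginning 45 bases before the start. This pattern, on either strand, occurs within 250 bases before 9.56% of 32851 RefSeq starts. The C1s1 start used here has it 242 bases upstream, before the stretch shown, the other RefSeq start of C1s1 does not have it in its window, and C1ra does not have it in that window. The patterns TTCNNNGAA (STAT, in 7.02% of starts), GAAANNGAA (IRF, 7.13%) and GGGANNTCC (NF-kB, 3.59%) were searched in the same way. In the 6 complement genes with an entry, only C7 held one of these, TTCCCAGAA, 164 bases upstream.

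The sort was checked against marker genes. Tcf21 was between 203 and 447 CPM (counts per 1000000 reads of the library, scaled by TMM) in all 18 libraries, and Pdgfra, a surface receptor of cardiac fibroblasts, between 256 and 878 CPM. The 10 fibroblast markers summed to between 44600 and 104000 CPM. The 15 macrophage markers summed to between 7.8 and 1040 CPM, the 11 cardiomyocyte markers to between 118 and 1070 CPM, the 9 endothelial markers to between 190 and 552 CPM, the 9 mural cell markers to between 429 and 1540 CPM and the 7 neutrophil markers to between 0 and 13.5 CPM. In bulk RNA, a higher share of a cell type and more RNA per cell cannot be told apart. P10 resected +3 days replicate 3 stood apart, holding the highest level of C1ra, C1s1, Serping1, C4b, C3 and Cfb of all 18 libraries, and values that turned or lost their call without it are given both ways.

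Levels of different genes were set side by side per kilobase of exon, less the share of 75-base windows that also occur in another gene. On this scale Serping1 was the most abundant of the 9 genes, with a median of 398 CPM per kb over the 18 libraries. C1ra (17.6 CPM per kb), C1s1 (13.2) and C3 (6.7) followed. C4b had a median of 1.6, C7 of 1.31, C3ar1 of 0.869 and Cfb of 0.227 CPM per kb. The transcript of the inhibitor was thus far above those of the proteases it blocks.

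**Figure D1:**
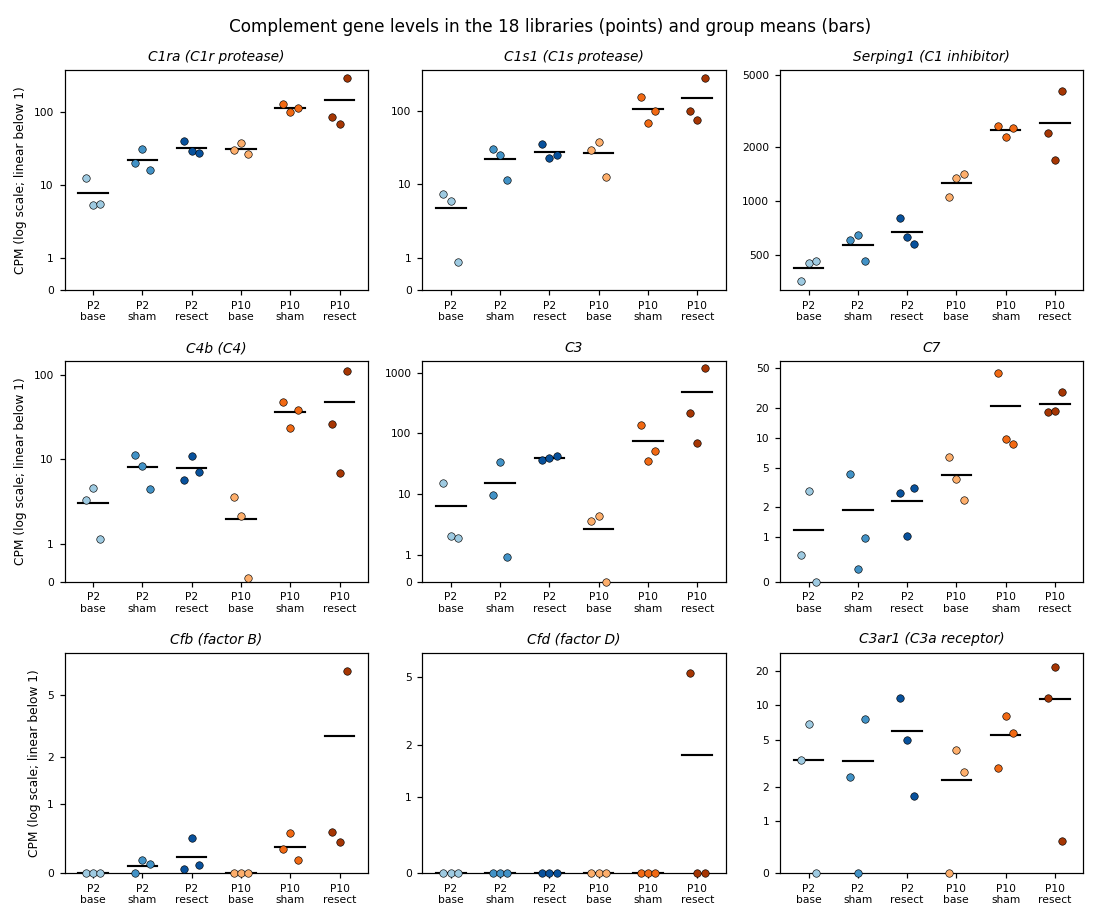
CPM of the 9 complement genes in each of the 18 libraries (points, 3 per group) with group means (horizontal bars), on a log axis that is linear below 1 CPM, except for Serping1, whose axis is logarithmic throughout. All 9 P10 libraries lie above all 9 P2 libraries for Serping1, while C3 and C4b are low at both baselines and Cfd has a count in a single library.

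The non-regenerative window was first compared with the regenerative window by setting the 3 P10 groups against the 3 P2 groups. Serping1, C1ra, C1s1 and C7 rose, so that 4 of the 8 genes tested were called higher at an adjusted p under 0.05 in edgeR, against 7.11% of all genes tested. The median log2 fold change was 1.90 over the 7 genes with counts in every group, without Cfb, and that of all genes tested was -0.06. C3, C4b, C3ar1 and Cfb were not called, and no gene of the 9 was called lower.

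Serping1, which encodes C1 inhibitor and blocks C1r and C1s, had 360, 453 and 460 CPM at P2 baseline, and 1050, 1330 and 1410 CPM at P10 baseline. It had 603, 646 and 463 CPM in P2 sham +3 days and 2590, 2250 and 2540 CPM in P10 sham +3 days. After resection it had 798, 628 and 573 CPM in the P2 group and 2380, 1680 and 4050 CPM in the P10 group. The lowest P10 library, at 1050 CPM, was above the highest P2 library, at 798 CPM. Across the windows the log2 fold change was 1.90 (SE 0.15, adjusted p = 5.52e-07), or 3.74-fold. Serping1 was the 1 gene of the 8 whose windows did not overlap in the higher direction, which 1.15% of all genes tested showed. Its differences within each state were also called, with log2 fold changes of 1.58 (SE 0.27, adjusted p = 0.00259) at baseline, 2.11 (SE 0.27, adjusted p = 0.000375) after sham surgery and 2.02 (SE 0.27, adjusted p = 0.000908) after resection.

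C1ra encodes the C1r protease that activates C1s. It had 12.5, 5.3 and 5.42 CPM at P2 baseline, 19.6, 30.8 and 15.7 CPM in P2 sham +3 days and 39.1, 28.6 and 27.5 CPM in P2 resected +3 days. In the P10 window it had 29.5, 37.6 and 25.9 CPM at baseline, 128, 98.4 and 113 CPM after sham surgery and 84.3, 67.7 and 285 CPM after resection. The P10 baseline libraries were thus at the level of the P2 resected libraries, and the P10 libraries collected after surgery were above every P2 library. The difference between the windows was 2.19 on the log2 scale (SE 0.27, adjusted p = 3.49e-05), and it was called at baseline (2.00, SE 0.48, adjusted p = 0.0223), after sham surgery (2.36, SE 0.48, adjusted p = 0.00927) and after resection (2.20, SE 0.47, adjusted p = 0.0321). Without P10 resected +3 days replicate 3, the difference after resection was 1.28 and no longer called (adjusted p = 0.358, against a range of 5.3e-07 to 0.358 over all settings run).

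C1s1 encodes C1s, the protease that cleaves C4 and C2. Its libraries ran from 0.853 to 7.32 CPM at P2 baseline, from 11.3 to 30.2 in P2 sham +3 days and from 22.9 to 35.9 in P2 resected +3 days. At P10 they ran from 12.5 to 38.2 CPM at baseline, from 69 to 154 after sham surgery and from 74.8 to 280 after resection. No P2 library reached the lowest P10 library taken after surgery. C1s1 rose between the windows by a log2 fold change of 2.41 (SE 0.37, adjusted p = 0.000261) and at baseline by 2.50 (SE 0.65, adjusted p = 0.0363). After sham surgery (2.29, SE 0.64, adjusted p = 0.0605) and after resection (2.45, SE 0.64, adjusted p = 0.0905) the difference was of similar size and was not called in edgeR with the filter on all 18 libraries. DESeq2, limma voom with sample weights and edgeR without the filter called both, and edgeR on the compared groups alone called that after resection. Without P10 resected +3 days replicate 3 the value after resection was 1.68.

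C7 (chr15:4988762-5063740, minus strand), a terminal pathway component, was low throughout. It had 0.598, 2.93 and 0 CPM at P2 baseline, 4.37, 0.277 and 0.979 CPM in P2 sham +3 days, and 2.76, 1.03 and 3.14 CPM in P2 resected +3 days. The P10 libraries had 6.49, 3.85 and 2.37 CPM at baseline, 44.7, 9.7 and 8.68 CPM after sham surgery and 18.2, 18.6 and 28.7 CPM after resection. Every P10 library taken after surgery exceeded every P2 library. The log2 fold change between the windows was 2.85 (SE 0.63, adjusted p = 0.00519), or 3.48 without P2 baseline replicate 2, and edgeR with the filter on all 18 libraries called none of the 3 separate age differences of C7. DESeq2 and edgeR without the filter called C7 after sham surgery and after resection, and voom and edgeR on the compared groups alone called it after resection. The value after sham surgery was 3.48, and it was 2.29 without P10 sham +3 days replicate 1 and 5.09 without P2 sham +3 days replicate 1.

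At baseline, 3 of the 8 genes tested (Serping1, C1ra and C1s1) were called higher at P10, against 2.71% of all genes. The same 3 genes had groups that did not overlap, which 10.3% of all genes showed. Only Serping1 stayed called without P2 baseline replicate 2, without P2 baseline replicate 3 or without P10 baseline replicate 2, and without P2 baseline replicate 1 C1s1 was lost. After sham surgery 2 genes (Serping1 and C1ra) were called, against 1.54% of all genes, and 7 of 8 did not overlap, against 9.07%. Of these 7, C3 was separated only by 34.9 against 34 CPM and Cfb by 0.189 against 0.184 CPM. Without P2 sham +3 days replicate 3 only Serping1 remained called. After resection 2 genes (Serping1 and C1ra) were called, against 0.625%, and 5 of 8 did not overlap, against 10.6%. Here only Serping1 remained called when any single P2 resected library or P10 resected +3 days replicate 3 was left out. The median log2 fold change was 1.58 over the 7 genes with counts for the baselines, and over the 8 genes it was 2.23 after sham surgery and 2.51 after resection, and the medians of all genes were -0.03, -0.07 and -0.04.

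Markers of cell types also differed between the windows. Among fibroblast markers, the matrix genes Col3a1, Dcn and Lum were called higher at P10, and the summed level of the 10 markers ran from 44600 to 91200 CPM in the P2 libraries and from 65800 to 104000 CPM in the P10 libraries. The mural cell markers Rgs5, Kcnj8, Higd1b and Myh11 were called higher and Mcam lower, the macrophage marker Cd14 and the endothelial marker Esam were called higher, and the cardiomyocyte markers Myh7, Tnnt2, Myl2, Nppa and Pln were called lower. The part of these differences in the complement results was not tested.

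**Figure D2:**
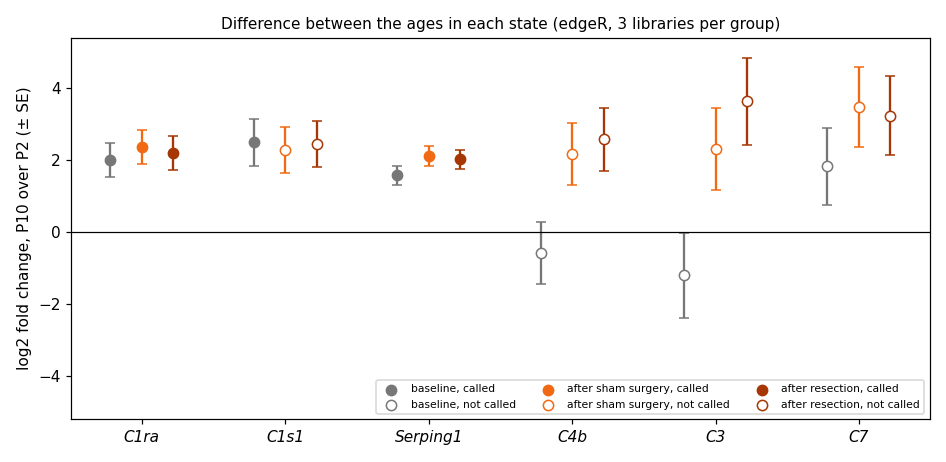
Log2 fold change of P10 over P2 with its SE for 6 complement genes in the 3 states, namely baseline, sham surgery and resection (edgeR, 3 libraries per group, filled points called at an adjusted p under 0.05). C1ra, C1s1 and Serping1 lie between 1.58 and 2.50 in every state, while C3 and C4b lie below 0 at baseline and above 2 after surgery.

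C3, on which the complement pathways converge, and C4b, whose product C1s cleaves, did not show the baseline difference. C3 had 14.9, 2.05 and 1.89 CPM at P2 baseline and 3.64, 4.28 and 0 CPM at P10 baseline. After sham surgery it had 9.71, 34 and 0.914 CPM in the P2 group and 135, 34.9 and 51.9 CPM in the P10 group. After resection it had 35.7, 39 and 41.7 CPM in the P2 group and 216, 69.6 and 1170 CPM in the P10 group. The baselines overlapped, while every P10 library collected after surgery was above the P2 libraries of the same surgery. The log2 fold change of C3 was -1.20 (SE 1.18, adjusted p = 0.654) in the baseline groups, 2.31 (SE 1.15, adjusted p = 0.33) after sham surgery and 3.64 (SE 1.21, adjusted p = 0.241) after resection, and none was called in edgeR with the filter. Voom called C3 after resection, and edgeR without the filter on low counts called it after sham surgery and after resection. Without P2 baseline replicate 1 the baseline value was 0.48. The value after sham surgery was 3.79 without P2 sham +3 days replicate 2 and 1.54 without P10 sham +3 days replicate 1. Without P10 resected +3 days replicate 3 the value after resection was 1.89. Over the whole windows C3 differed by 1.58 (SE 0.66, adjusted p = 0.123), and edgeR called it without P2 sham +3 days replicate 2 (2.09, adjusted p = 0.0481) or without the filter, with a range of 1.42e-11 to 0.369 over all settings run.

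C4b had 3.27, 4.61 and 1.16 CPM at P2 baseline and 3.64, 2.14 and 0.0987 CPM at P10 baseline. In P2 sham +3 days it had 11.4, 8.25 and 4.5 CPM and in P10 sham +3 days 47.2, 23.8 and 38.1 CPM. In P2 resected +3 days it had 5.75, 11 and 7.1 CPM and in P10 resected +3 days 26.2, 6.86 and 110 CPM. The sham groups did not overlap and the resected groups did, since P10 resected +3 days replicate 2 lay within the P2 range. C4b differed by -0.59 (SE 0.86, adjusted p = 0.79) at baseline, 2.17 (SE 0.86, adjusted p = 0.213) after sham surgery and 2.58 (SE 0.87, adjusted p = 0.251) after resection. The value after resection was 1.06 without P10 resected +3 days replicate 3, and that at baseline -1.32 without P10 baseline replicate 1. Its difference between the windows was 1.39 (SE 0.49, adjusted p = 0.0702), which edgeR called without P10 baseline replicate 3, without P10 resected +3 days replicate 2 or without the filter. DESeq2 called C4b between the windows and after resection, and edgeR without the filter called it after sham surgery and after resection as well.

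Whether the age difference itself differed between states was tested by contrasts added after the data had been seen. The P10 over P2 difference after sham surgery exceeded that at baseline by 3.50 for C3 (SE 1.64, unadjusted p = 0.0466, adjusted p = 0.747) and by 2.76 for C4b (SE 1.21, unadjusted p = 0.0354, adjusted p = 0.719). After resection it exceeded that at baseline by 4.84 for C3 (SE 1.66, unadjusted p = 0.00964, adjusted p = 0.567) and by 3.17 for C4b (SE 1.21, unadjusted p = 0.0182, adjusted p = 0.665). None of these differences was called with the filter on low counts, where 0 of all 16170 genes were called for sham surgery and 9 for resection. C3 and C4b were the 2 of 8 genes higher at an unadjusted p under 0.05 in each, against 502 and 453 of all genes. Without the filter edgeR called C3 and C4b in both. Without P2 baseline replicate 1 the values of C3 were 1.83 and 3.16, and without P2 sham +3 days replicate 2 the value after sham surgery was 4.97, against 2.74 without P10 sham +3 days replicate 1. Without P10 baseline replicate 1 the values of C4b were 3.49 and 3.90, and without P10 resected +3 days replicate 3 the values after resection were 3.08 for C3 and 1.64 for C4b. For C1ra the differences from baseline were 0.36 (SE 0.65) after sham surgery and 0.19 (SE 0.65) after resection, and for C1s1 they were -0.21 (SE 0.86) and -0.06 (SE 0.85). The approximate 95% intervals for C1s1, from -1.91 to 1.48 and from -1.72 to 1.61, leave room for sizeable differences.

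The sham groups were then set against the baselines of the same age at surgery. This comparison holds both the surgery and 3 days of growth, which cannot be told apart. At P10, none of the 8 genes was called in edgeR with the filter, against 0.00618% of all genes, while 7 of 8 (all except C3ar1) were higher at an unadjusted p under 0.05, against 3.25% of all genes. The same 7 genes did not overlap between the groups, against 5.34%. All genes tested gave 1197 at an unadjusted p under 0.05, and DESeq2 called 164 of all genes, among them C1ra, C3 and C4b. Without the filter edgeR called these and C1s1. The log2 fold changes were 4.74 for C3 (SE 1.30, adjusted p = 0.401), 4.17 for C4b (SE 0.94, adjusted p = 0.292), 2.31 for C7 (SE 1.06), 2.02 for C1s1 (SE 0.63), 1.87 for C1ra (SE 0.47) and 0.96 for Serping1 (SE 0.26). Without P10 sham +3 days replicate 1 the value was 1.11 for C7 and 3.97 for C3, and without P10 baseline replicate 1 it was 4.91 for C4b. The median over the 7 genes with counts in both groups was 2.02, and over all genes -0.02.

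At P2 the same comparison gave smaller values for C3 (1.24, SE 1.13), C4b (1.41, SE 0.85) and C7 (0.66, SE 1.05). The value of C3 was -0.23 without P2 sham +3 days replicate 2 and 2.92 without P2 baseline replicate 1. That of C7 was -0.95 without P2 sham +3 days replicate 1 and 2.56 without P2 baseline replicate 2. C1s1 was higher by 2.23 (SE 0.65, adjusted p = 0.458) and C1ra by 1.51 (SE 0.47, adjusted p = 0.496), while Serping1 was higher by 0.43 (SE 0.26). No gene of the 9 was called in edgeR with the filter, against 0% of all genes, where 1229 had an unadjusted p under 0.05 and DESeq2 called 180, with C1s1 among them. Without the filter edgeR called C1s1 and C1ra. There were 3 of 8 genes (C1s1, C1ra and Cfb) at an unadjusted p under 0.05 in the higher direction, against 4.14% of all genes. C1s1, C1ra and Serping1 did not overlap between the groups, against 4.48%. The median over the 7 genes with counts in both groups was 1.24, and over all genes 0.03. The summed macrophage markers ran from 7.8 to 67.3 CPM at P2 baseline and from 13.4 to 166 CPM in P2 sham +3 days, and from 15.9 to 184 CPM at P10 baseline and from 96.4 to 313 CPM in P10 sham +3 days. No marker tested was called in sham against baseline at P10. The median log2 fold change there was 1.45 for macrophage, 4.77 for neutrophil and 1.92 for epicardial and mesothelial markers. It was -0.15 for fibroblast, -0.34 for endothelial, -0.54 for mural and -0.63 for cardiomyocyte markers. The neutrophil markers summed to at most 0.296 CPM at P10 baseline. The part of these cell types in the differences was not tested.

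**Figure D3:**
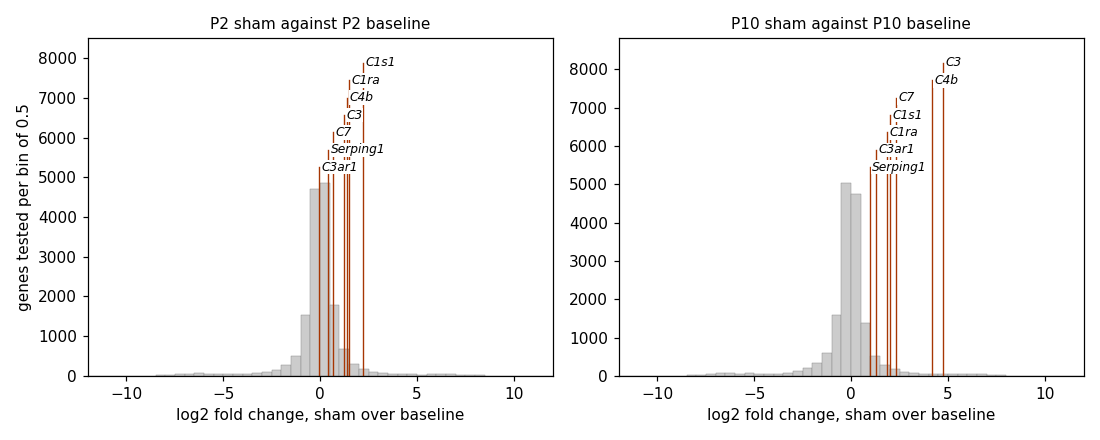
Log2 fold change of sham over baseline at P2 (left) and P10 (right) for all 16170 genes tested (grey bars, bins of 0.5, outermost values placed in the end bins) and for 7 complement genes (red lines, whose heights carry no value). At P10 C3 and C4b lie at 4.74 and 4.17, far to the right of the bulk of the genes.

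Resection was compared with sham surgery at each age. No complement gene was called at either age in edgeR with the filter, against 0% of all genes at P2 and 0% at P10, and 0% in the test of the difference between the ages. Over all genes, edgeR gave 730 genes at P2, 661 at P10 and 465 for the difference at an unadjusted p under 0.05, and DESeq2 called 34, 43 and 26 genes. None of the 9 complement genes was among those called by DESeq2. C3 had the largest difference of the 6 genes above with a log2 fold change at P10 of 2.71 (SE 1.16, unadjusted p = 0.0312, adjusted p = 1). It was the 1 gene of the 8 at an unadjusted p under 0.05 in the higher direction, against 3.43% of all genes. The groups overlapped, and the value was 0.93 without P10 resected +3 days replicate 3 and 3.48 without P10 sham +3 days replicate 1. Without the filter edgeR called C3 here, in a fit whose share of all genes called is not given. At P2 the C3 groups did not overlap, from 0.914 to 34 CPM after sham surgery and from 35.7 to 41.7 CPM after resection. C3 was the 1 gene of the 8 with such a gap, against 5.62% of all genes, and its log2 fold change was 1.38 (SE 1.11, adjusted p = 1), or 2.84 without P2 sham +3 days replicate 2.

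The intervals of the other genes were wide and held 0. At P10 the log2 fold change of Serping1 was 0.13 (approximate 95% interval -0.38 to 0.64), that of C1ra 0.36 (-0.53 to 1.25), that of C1s1 0.49 (-0.70 to 1.68) and that of C4b 0.39 (-1.21 to 2.00). All of these turned without P10 resected +3 days replicate 3, to -0.28 for Serping1, -0.58 for C1ra, -0.30 for C1s1 and -1.14 for C4b. Cfb differed by 2.85 (-0.31 to 6.01), or 0.48 without that library, and C3ar1 by 1.02 (-2.08 to 4.12), or 0.15 without P10 resected +3 days replicate 2. At P2 Serping1 differed by 0.22 (-0.29 to 0.73), C1ra by 0.53 (-0.37 to 1.42), C1s1 by 0.33 (-0.86 to 1.53) and C4b by -0.02 (-1.64 to 1.6). The median over the 8 genes was 0.43 at P2 and 0.44 at P10. For C3 the resection effect at P10 exceeded that at P2 by 1.33 (SE 1.55, adjusted p = 1), and this value was -0.42 without P10 resected +3 days replicate 3 and -0.13 without P2 sham +3 days replicate 2.

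Cfb, which encodes factor B of the alternative pathway, is given as counts, since a baseline group without counts gives no fold change. All 6 baseline libraries had 0 counts, at a limit of 3 counts per group. The P2 sham +3 days libraries had 0, 4 and 2 counts and the P2 resected +3 days libraries 1, 12 and 2. In P10 sham +3 days there were 7, 9 and 4 counts, and in P10 resected +3 days 12, 7 and 92. Counts were thus seen in 11 of the 12 libraries taken after surgery and in none taken at baseline. P10 sham +3 days was at least 5.33-fold higher than P10 baseline, or at least 3.13-fold without P10 baseline replicate 2. P10 resected +3 days was at least 34.4-fold higher, or at least 8-fold without its replicate 3. These bounds cover counting error only, since PCR copies of a molecule were not told apart, and they rest on the 20.5% of the gene on which reads could be counted.

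Cfd (chr10:79890853-79892655, plus strand), which encodes factor D and is known as a product of adipocytes, had 106 counts (5.27 CPM) in P10 resected +3 days replicate 1 and none in the other 17 libraries. Of 7 adipocyte markers, the same library had 2.14 CPM of Pck1, 0.646 of Cidec and 0.497 of Adipoq, which were at 0 in all other libraries, and 0.0497 CPM of Plin1. Plin1 reached 0.449 CPM in a P10 sham +3 days library, Plin4 was at 0 here and reached 2.07 CPM in a P10 baseline library, and Lep and Retn were at 0 in all libraries. The 7 markers summed to 3.33 CPM there and to between 0 and 2.27 CPM in the others. Its 9 epicardial and mesothelial markers summed to 57.7 CPM, the highest of the 18 libraries, against a range of 0 to 24 CPM in the others. The part of these cells in the Cfd counts was not tested.

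C3ar1 (chr6:122847138-122856161, minus strand), the C3a receptor of myeloid cells, was not called in any comparison. Its group means were 3.41 ± 3.44 (SD, n = 3) CPM at P2 baseline, 3.35 ± 3.90 in P2 sham +3 days and 6.08 ± 5 in P2 resected +3 days. They were 2.26 ± 2.09 CPM at P10 baseline, 5.58 ± 2.60 in P10 sham +3 days and 11.3 ± 10.5 in P10 resected +3 days. All neighbouring groups in this order of levels overlapped, and the windows differed by 0.35 (SE 0.91, adjusted p = 0.863). Within P10 resected +3 days the libraries had 11.7, 21.6 and 0.622 CPM of C3ar1, and their summed macrophage markers were 403, 1040 and 65.2 CPM. C3 had the opposite order in the outer libraries, with its highest level, 1170 CPM, where the macrophage markers summed to 65.2 CPM and its lowest, 69.6 CPM, where they summed to 1040 CPM.

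**Figure D4:**
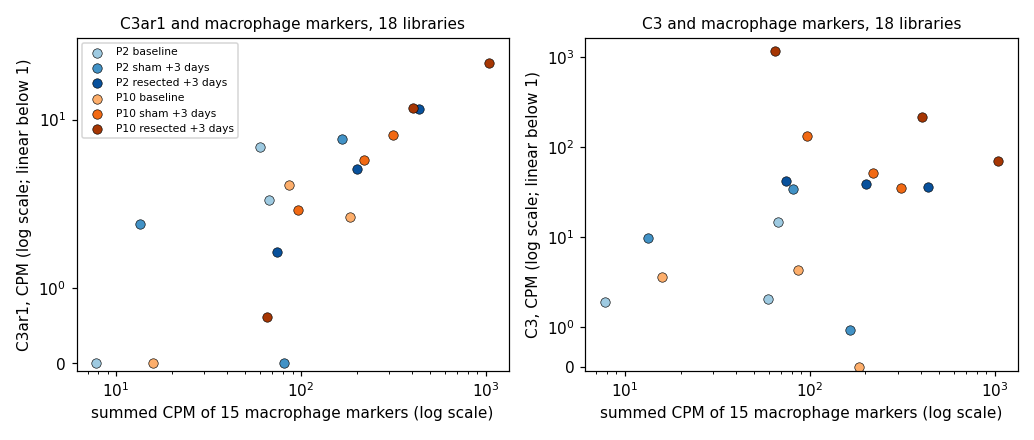
CPM of C3ar1 (left) and C3 (right) against the summed CPM of 15 macrophage markers in the 18 libraries, coloured by group, with log axes that are linear below 1 CPM on the vertical. C3ar1 is highest, at 21.6 CPM, in the library with the highest marker sum of 1040 CPM, and C3 is highest, at 1170 CPM, in a library with a sum of 65.2 CPM.

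The levels of the genes were also compared across libraries. C1ra and C1s1 had a Pearson correlation of 0.95 over the 18 libraries on log2 CPM, and C3 and C4b of 0.89. C1ra correlated with Serping1 at 0.91, C3 with C1ra and with C1s1 at 0.73 and with Serping1 at 0.53, and C3ar1 with the other 7 genes tested at 0.12 to 0.43. The libraries share their groups, so these values describe the groups as much as the libraries. Among all genes tested, those most like C3 were C4b (0.888), the acute phase gene Saa3 (0.864) and the syndecan gene Sdc4 (0.854). The most like C1ra were the class I histocompatibility gene H2-K1 (0.964), A4galt (0.957) and C1s1 (0.949), and the most like Serping1 were Htra3 (0.977), Igfbp7 (0.958) and H2-K1 (0.958). C7 was most like Man1a (0.946), the TGF-beta receptor gene Tgfbr2 (0.939) and Plxdc2 (0.916). C3ar1 was most like Laptm5 (0.858), a leukocyte gene that is also on the macrophage list.

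The other complement genes were described from a list of 46 genes, of which 27 could be tested. Between the windows 6 of the 27 were called higher, beside the 7.11% of all genes, and none lower. These were the regulators Cd55 and Vtn, the lectin pathway genes Masp1 and Colec11, the collectin gene Colec12 and the integrin gene Itgam. The median log2 fold change of the 27 genes was 0.97. Cd55, encoding a membrane protein that speeds the decay of C3 convertases, rose by 1.36 (SE 0.19, adjusted p = 0.000105). Masp1 rose by 1.18 (SE 0.32, adjusted p = 0.0195) and was no longer called without P10 resected +3 days replicate 3 (adjusted p = 0.0543, with a range from 0.00012 to 0.0543 over all settings). Itgam was called from levels between 0 and 1.94 CPM, with 2 P2 groups at 0.

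Vtn, encoding vitronectin, which binds terminal complexes, had the largest difference at baseline, with 2.35, 0.465 and 0.0609 CPM at P2 and 85.5, 161 and 167 CPM at P10. Its log2 fold change there was 7.12 (SE 0.72, adjusted p = 3.12e-05), and 8.91 without P2 baseline replicate 1. Vtn was between 12 and 28.8 CPM in the P2 groups collected at P5 and between 70.2 and 116 CPM in the P10 groups collected at P13. Of the 9 mural cell markers, 4 were called higher at baseline and 0 lower. These were Rgs5 (1.55), Kcnj8 (1.97), Higd1b (2.58) and Myh11 (3.58). The 9 markers summed to 439 to 637 CPM at P2 baseline and 732 to 1540 CPM at P10 baseline. The part of mural cells in the Vtn difference was not tested. At baseline Colec11 (1.44, SE 0.28, adjusted p = 0.00738) and Cd55 (1.39, SE 0.33, adjusted p = 0.0221) were called beside Vtn. After sham surgery Cd55 (1.54, SE 0.33, adjusted p = 0.0141) and Vtn (2.62, SE 0.57, adjusted p = 0.015) were called. Colec11 differed by only 0.29 after sham surgery (SE 0.28, adjusted p = 0.682) and by 0.29 after resection (SE 0.28, adjusted p = 0.94). Cd55 was no longer called at baseline without P10 baseline replicate 1 or any single P2 baseline library, nor after sham surgery without P10 sham +3 days replicate 1 or P2 sham +3 days replicate 2. Vtn was no longer called after sham surgery without P2 sham +3 days replicate 3. In the added contrast of the age difference after resection minus that at baseline, 1 of the 27 genes was called lower (adjusted p = 0.0271). Of all 16170 genes, 9 were called there, and 0 to 36 with a library left out. None of the 27 genes was called in edgeR with the filter between the resected groups or between resection and sham surgery at either age, and at an unadjusted p under 0.05 there were 3 between the resected groups (against 8.77% of all genes), 4 for resection at P2 (4.51%) and 0 for resection at P10 (4.09%).

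Cr1l, encoding the rodent convertase inhibitor Crry, was between 69.3 and 152 CPM in all libraries. C2, the partner of C4 in the classical C3 convertase, had 0 to 2.12 CPM in the P2 libraries and 1.87 to 6.68 CPM in the P10 libraries (log2 fold change 1.83, SE 0.60, adjusted p = 0.0504). C8a, C8b, C9, C4bp, Cpn1, Fcnb and Mbl1 had no count in any library, and C6 and Hc, which encodes C5, had 5 and 31 counts in all. Of the terminal pathway only C7 and C8g (mean 2.36 CPM over the P2 libraries and 2.58 CPM over the P10 libraries) were thus measured above a trace. The C1q chains, made by macrophages, ranged from 0 to 136 CPM for C1qb. Within P10 resected +3 days C1qb had 78.4, 136 and 16.4 CPM, in the order of the macrophage markers.

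**Figure D5:**
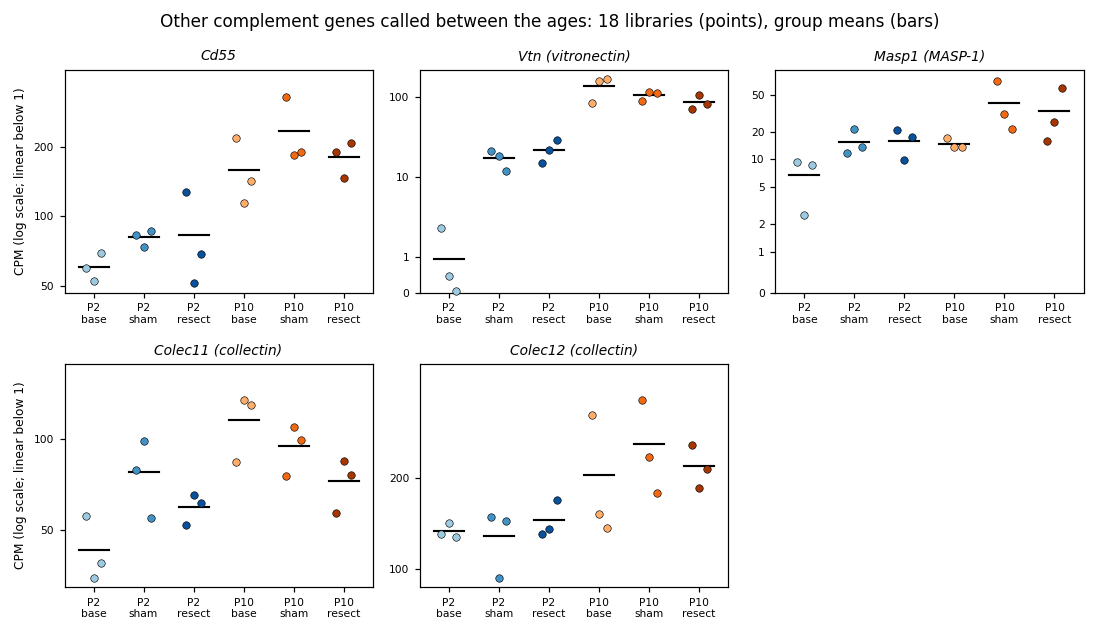
CPM of 5 further complement genes called between the windows, in each of the 18 libraries (points, 3 per group) with group means (bars), on log axes (linear below 1 CPM for Vtn and Masp1). Vtn is at or below 2.35 CPM in the 3 P2 baseline libraries and at or above 70.2 CPM in all P10 libraries.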

How the data were processed

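GFP+ cells were measured by bulk RNA sequencing in 18 libraries (SMARTer amplification, Nextera XT, single-end reads of 75 bases). The authors trimmed reads with fastp 0.20.0, mapped them with STAR 2.7.0f to GRCm38.p6 with GENCODE M22, and counted exon reads per gene symbol with featureCounts (Subread 1.6.4) without strand. The deposited values are these raw counts, from 10462737 to 22980554 per library, which limits a gene without reads to 3 counts. Unless told otherwise, featureCounts does not count a read with more than 1 mapping place or one lying on more than 1 gene. Gene positions, exon lengths and shared windows came from GENCODE M21 on the same build, and promoters from RefSeq (GRCm38.p6).

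Testing used edgeR 4.0.16 under R 4.3.3 (TMM, filterByExpr with a minimum count of 10 and a total of 15, quasi-likelihood fit of all 18 libraries with 1 mean per group, Benjamini-Hochberg over 16170 genes, threshold 0.05). The SE is the log2 fold change over the square root of F, and 95% intervals use it with a normal approximation. Alternatives were DESeq2 1.42.0, RLE factors, no filter, the compared groups alone, a replicate block, limma 3.58.1 voom with sample weights, and each library left out in turn.

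Genes named are the 9 complement genes, the genes of the wider list that were called or were among its 5 highest in mean CPM, a few of its genes given for their pathway role (C1qb, C2 and the terminal components), those with no count in any library, the 3 genes most correlated with a member, and marker genes. Some genes of the wider list are not reported here. The genes, lists and markers were chosen with earlier results of these data known. The samples carry replicate numbers that the labels do not tie to a litter or day. Same-numbered libraries deviated together in P10 against P2 resected (correlations of 0.12, 0.19 and 0.13) and in P10 sham against P10 baseline (0.33, 0.11 and 0.13), where every pair was above 0.1.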

Additional observations from a re-analysis of the deposited data

How the results depend on the processing

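The number of complement genes called between the windows was 4 and stayed between 4 and 6 in every setting run, and between 4 and 5 with each library left out. At baseline it was 3, and 1 with the compared groups alone, and 1 to 3 with a library left out. After sham surgery it was 2, and 4 in DESeq2, 6 without the filter and 3 with voom weights, and 1 to 2 with a library left out. After resection it was 2, and 5 in DESeq2, 6 without the filter, 5 with voom weights and 3 with the compared groups alone (Serping1, C1s1 and C7, without C1ra), and 1 to 2 with a library left out. The 0 genes for P10 resection against sham became 1 (C3) without the filter. Those for sham against baseline became 1 in DESeq2 and 2 without the filter at P2, and 3 and 4 at P10. The 2 contrasts added after the data had been seen gave 2 genes each (C3 and C4b) without the filter. Over all genes, these contrasts gave 0 and 9 in edgeR with the filter and 129 and 137 in DESeq2, with no complement gene of the 9 among them. The cause of these changes was not tested. Without the filter, more genes with few counts enter the fit. The share of all genes called in that fit is not given here, so its calls have no background to be read against.

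For C3 the difference between the resection effects was 1.33 and turned to -1.40 with voom weights, and it ran from -0.42 to 2.10 with a library left out. The baseline difference of C3 was -1.20 and ran from -1.69 to 0.48 with a library left out, and it was -2.17 with voom weights. Over the settings that kept all libraries compared, resection against sham at P2 ran from 1.35 to 3.59 for C3. Its age difference after sham surgery ran from 2.22 to 3.94 there, and the excess of that over baseline from 3.27 to 6.11. With a library left out, resection against sham at P10 ran from -0.58 to 0.70 for C1ra, -0.30 to 0.84 for C1s1, -1.14 to 0.91 for C4b and -0.28 to 0.38 for Serping1, and sham against baseline at P2 from -0.23 to 2.92 for C3 and -0.95 to 2.56 for C7. With voom weights these values were -0.05 for C1ra, -0.45 for C4b and, at P2, -1.0 for C3. For C4b at P2, resection against sham was -0.02, and 0.47 with voom weights, 0.01 without the filter, 0.05 with the replicate block and -0.33 to 0.32 with a library left out. The cause was not tested. Serping1 was called for the windows and for all 3 separate age differences in every setting run, and 845 of 930 alternative values of single genes kept their direction and side of the threshold.

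The calls over all genes moved as well. Between the windows there were 2183 in edgeR, 3190 in DESeq2 and 4569 with voom weights. At baseline there were 709, 1671 and 3645, after sham surgery 515, 1281 and 707, and after resection 139, 506 and 908. With the replicate block, the members called were the same in number in all 9 comparisons (4 between the windows, 3 at baseline, 2 after sham surgery, 2 after resection and 0 in the others). Apart from the 2 comparisons whose pairs all passed 0.1, same-numbered libraries had correlations between -0.13 and 0.29. P10 against P2 sham had 0.29, 0.15 and 0.04. Whether a number marks a litter or day cannot be told from these values.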
